A study of Mus musculus with 54 samples.

Results

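Axon guidance genes encode the cues that steer growing axons and migrating neurons and the receptors that read them. The 10 genes described here are Robo1, Robo2, Robo3, Slit2, Nrp1, Nrp2, Sema3a, Sema3c, Ntn1 and Dcc. They were chosen by symbol as receptors and ligands of 3 guidance systems, with earlier results of these data known. All 10 were found among the 53379 gene identifiers of the count files. RNA had been sequenced from mouse cerebellum and cerebellar tumours 5 h after 1 Gy of radiation or a sham treatment, in a study of medulloblastoma and its spread after radiation. The normal tissue was cerebellum of C57BL/6 mice, called BL6 here. SmoA1 tumours came from mice labelled SmoA1 homo, and SmoA1 is an activated form of Smoothened, the transducer of Hedgehog signalling. Ptc tumours came from Ptc het mice, labelled C57BL/6, which carry 1 inactive copy of the Hedgehog receptor gene Ptch1. The labels give neither age nor the promoter of the SmoA1 transgene. Each model had a sham and a 1 Gy group, and each of the 6 groups held 3 libraries, named here by the sample number in their titles.

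Secreted SLIT proteins bind ROBO receptors and repel axons and migrating neurons. Class 3 semaphorins such as SEMA3A and SEMA3C bind neuropilins, which signal together with plexins. Netrin-1, the product of Ntn1, attracts axons through the receptor DCC and repels them through UNC5 receptors. In the developing cerebellum these systems act on granule neuron progenitors, the cells from which Hedgehog-driven medulloblastoma arises, and on the axons and dendrites that form around them.

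The members are long genes. On GRCm38 with GENCODE M21 their spans ran from 17.6 kb for Robo3 to 1097.4 kb for Dcc, with a median of 258.0 kb against 17.4 kb over 21865 protein-coding genes. Robo2 lies on the minus strand at chr16:73891839-74411825 and Slit2 on the plus strand at chr5:47983138-48307733. Robo1 is on the plus strand of the same chromosome as Robo2, at chr16:72308306-73046095, and Robo3 is at chr9:37415669-37433246 on the minus strand. Ntn1 is at chr11:68209364-68400823 on the minus strand. The neuropilin and semaphorin genes are all on the plus strand. Nrp1 is at chr8:128358604-128503363, Nrp2 at chr1:62703285-62818695, Sema3a at chr5:13125414-13602565 and Sema3c at chr5:17574281-17730268. Each value below counts reads over the exons of the whole gene.

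Robo2 and Slit2, a receptor and its ligand, were the called members with a start site in the RefSeq promoter table for GRCm38.p6, so their promoters are shown. Each sequence runs 5′ to 3′ on the gene's strand over 300 bases, of which 250 lie before the annotated start. Capitals mark the E-box CAGCTG, a motif of basic helix-loop-helix factors, and the GLI motif GACCACCCA of the Hedgehog effectors was searched as well, both on either strand. The Robo2 promoter lies at chr16:74411776-74412075 and the Slit2 promoter at chr5:47982905-47983204.
Robo2: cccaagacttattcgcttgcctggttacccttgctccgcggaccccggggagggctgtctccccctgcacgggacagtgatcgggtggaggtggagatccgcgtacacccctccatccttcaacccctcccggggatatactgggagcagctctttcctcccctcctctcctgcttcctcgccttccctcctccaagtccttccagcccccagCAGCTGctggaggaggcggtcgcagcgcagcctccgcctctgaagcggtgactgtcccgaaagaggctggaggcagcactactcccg
Slit2: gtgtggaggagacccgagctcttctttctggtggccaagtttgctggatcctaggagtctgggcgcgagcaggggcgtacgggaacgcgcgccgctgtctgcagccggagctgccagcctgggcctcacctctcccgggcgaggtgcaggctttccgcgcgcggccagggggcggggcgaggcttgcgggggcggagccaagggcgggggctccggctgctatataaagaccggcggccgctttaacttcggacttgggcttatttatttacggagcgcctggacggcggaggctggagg

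The E-box begins at base 214 of the Robo2 sequence. Among the 10 promoters that the table holds for 8 of the members, this was the 1 match to the E-box, which 16.3% of all 32851 promoters contain. No member promoter held the GLI letters, which 0.253% of all promoters contain. The Robo2 and Slit2 sequences were 65.0% and 68.0% G and C, against a median of 52.7% over all promoters. RefSeq also lists Robo2 starts at chr16:75092721-75093020 and chr16:75447244-75447543, both outside the GENCODE span of the gene.

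The libraries were of 2 kinds, which bears on every level given here. BL6 and SmoA1 libraries held 540652 to 842997 counts in genes, whereas Ptc libraries held 34124031 to 51330146. In the BL6 and SmoA1 libraries 70.4% to 75% of uniquely mapped reads lay over no annotated exon, against 12.5% to 14.3% in Ptc. The housekeeping gene Actb lay at 26.5 to 61.8 CPM (counts scaled to library depth) in BL6 and SmoA1 and at 791 to 2694 CPM in Ptc. Levels were therefore scaled separately for the 2 kinds, and Ptc levels were not tested against the others. Model and library kind cannot be told apart. Smo itself lay at 76.4 to 99.8 CPM in SmoA1 and at 36.7 to 44.5 CPM in BL6. Ptch1 showed no such separation, at 162 to 242 CPM in SmoA1 and 181 to 234 CPM in BL6, and lay at 121 to 197 CPM in Ptc.

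Every member was detected in every library. Counts per library ran from 4 to 171 in BL6 and SmoA1 and from 19 to 6650 in Ptc, and depth limits the precision of the former. The summed density of 1092 olfactory receptor genes, which cerebellum is not known for expressing, was 0.163 to 0.288 CPM per kb of exon in BL6 and SmoA1 and 0.0043 to 0.0067 in Ptc. None of the 120 and 60 member values lay at or below it, and the smallest ratios were 2.86 and 3.48. This density is a mean over many genes and not an upper limit. The highest single olfactory receptor gene reached 11.7 to 19.1 CPM per kb in BL6 and SmoA1 and 0.73 to 2.45 in Ptc. Most member values in BL6 and SmoA1, and all Slit2 values in Ptc, lay below the highest such gene of their library.

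Per kb of exon, Ntn1 had the highest mean level of the 10 members in all 6 groups. In BL6 sham Ntn1 lay at 11.9 ± 1.5 CPM per kb (SD, n = 3 here and below) and Nrp2 at 11.2 ± 0.80, which did not differ beyond their spread. Sema3c and Robo3 followed at 9.12 ± 0.87 and 9.05 ± 0.45, again indistinguishable. Robo2 at 7.01 ± 0.49, Sema3a at 6.94 ± 0.81 and Robo1 at 6.11 ± 0.08 formed the middle of the order. The SD of Robo1 is smaller than its counting error. Its libraries lay at 99.4 to 102 CPM, with exact 95% Poisson intervals that reached from 75.1 to 132 CPM. Slit2 and Nrp1 lay at 5.31 ± 0.33 and 5.31 ± 0.59, and Dcc was lowest at 2.68 ± 0.87, below every other member in all 3 libraries. The median density of protein-coding genes was 8.83 to 9.56 CPM per kb over the BL6 and SmoA1 libraries, and 9.44 to 9.52 in those of BL6 sham. The means of Ntn1 and Nrp2 lay above this BL6 sham range. The other members had means below it, with Sema3c and Robo3 the nearest.

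The order differed in Ptc sham. Ntn1 led at 18.8 ± 5.2 CPM per kb, and its lowest library, at 14.9, lay above the highest value of any other member. Dcc, Robo2 and Robo1, all receptors, came next at 6.53 ± 5.22, 5.13 ± 2.66 and 4.91 ± 3.38, with overlapping libraries. The neuropilins and semaphorins lay lower, with Nrp2 at 1.14 ± 0.38, Nrp1 at 0.92 ± 0.15, Sema3a at 0.92 ± 0.98 and Sema3c at 0.75 ± 0.76. Sham library 2, whose markers go against its tumour label as given below, carried the means of both semaphorins. It lay at 2.03 for Sema3a and 1.62 for Sema3c, against 0.22 and 0.50 for Sema3a and 0.23 and 0.39 for Sema3c in libraries 1 and 3. Robo3 at 0.17 ± 0.08 and Slit2 at 0.13 ± 0.12 were lowest. The median density of protein-coding genes was 1.335 to 2.099 CPM per kb in Ptc, so the receptors Dcc, Robo1 and Robo2 and the ligand Ntn1 lay above it in this group's means, and the neuropilins, the semaphorins, Slit2 and Robo3 lay below it.

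Sham-treated SmoA1 tumours were set against sham-treated normal cerebellum to ask which genes differ in the tumour before radiation. Dcc and Robo2 were higher in the tumours and Slit2 was lower, and the other 7 members did not pass the test. A gene was called where edgeR's quasi-likelihood test gave a p under 0.05 after Benjamini-Hochberg adjustment over all genes tested. By that rule 16.5% of 16428 genes were called, 7.07% higher and 9.4% lower. The 3 of 10 members called are to be read against that share, and the members were chosen with earlier results of these data known. Whether groups overlap is given here and below for description, as the share of all genes without overlap was not computed. The median log2 fold change was 0.04 over the members and 0.01 over all genes tested.

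Dcc, the netrin receptor, at chr18:71253634-72351069 on the minus strand, differed most. Its level was 33.3, 47.6 and 24.8 CPM in BL6 sham libraries 1, 2 and 3, and 83.0, 117 and 102 CPM in SmoA1 sham libraries 1, 2 and 4. All 3 tumour libraries lay above all 3 cerebellum libraries. The log2 fold change was 1.50 ± 0.22 (SE), a 2.83-fold difference, with an edgeR adjusted p of 2.0e-05.

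Robo2, a receptor for SLIT ligands, lay at 111, 128 and 119 CPM in BL6 sham and at 171, 217 and 180 CPM in SmoA1 sham. The groups did not overlap, and the log2 fold change was 0.67 ± 0.13 with an edgeR adjusted p of 0.000663. Its relative Robo1 lay at 102, 101 and 99.4 CPM in BL6 sham against 113, 111 and 129 CPM in SmoA1 sham. Those groups did not overlap either, but the difference of 0.22 ± 0.14 on the log2 scale was not called, with an edgeR adjusted p of 0.332.

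Slit2, a ligand of both receptors, showed the opposite order. It lay at 125.7, 141.3 and 138.4 CPM in BL6 sham and at 91.9, 36.9 and 83.3 CPM in SmoA1 sham, again without overlap. The log2 fold change was -0.95 ± 0.20 with an edgeR adjusted p of 0.00149, while the DESeq2 adjusted p was 0.0925. SmoA1 sham library 2 was the lowest, and without it the log2 fold change was -0.62 with an edgeR adjusted p of 0.00886.

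Robo3, a divergent ROBO known for guiding commissural axons across the midline, could not be placed. It lay at 62.9, 64.5 and 58.6 CPM in BL6 sham, a range narrower than counting error, as exact 95% Poisson intervals reached from 40.3 to 87.8 CPM. In SmoA1 sham it lay at 34.1, 5.09 and 151.7 CPM in libraries 1, 2 and 4, from 23, 4 and 113 counts, so these libraries spread on both sides of cerebellum. Exact 95% Poisson intervals, which cover counting error only, were 21.6 to 51.2, 1.39 to 13.0 and 125.1 to 182.4 CPM and did not overlap each other. The log2 fold change of 0.04 ± 0.49 was not called with all libraries, with an edgeR adjusted p of 0.974. Without SmoA1 sham library 4 it became -1.72 with an edgeR adjusted p of 0.000431, so this 1 library decides whether Robo3 is called lower in the tumour.

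Among the remaining ligands, Ntn1 lay at 64.7, 75.3 and 83.4 CPM in BL6 sham and 97.9, 83.9 and 139.6 CPM in SmoA1 sham. Sema3c, a ligand of neuropilins, lay at 62.9, 72.2 and 60.3 CPM against 38.6, 56.0 and 37.6 CPM. In neither gene did the groups overlap, and neither was called, at log2 fold changes of 0.52 ± 0.19 and -0.55 ± 0.21 with edgeR adjusted p of 0.0578 and 0.0765. Leaving out SmoA1 sham library 2 brought both past the threshold, with edgeR adjusted p of 0.0112 for Ntn1 and 0.0221 for Sema3c. That library was also the lowest for Slit2 and Robo3. It had 291 counts of 4 Y-linked genes, against 3 to 17 in the other 5 libraries. The female transcript Xist had 89 counts in it and 111 to 188 in the other 5, so these genes do not settle its sex. The part of sex in these values was not tested. Ntn1 also passed with no filter on low counts and with a minimum mean of 1 CPM, at edgeR adjusted p of 0.0273 and 0.0457. The neuropilins and Sema3a had small differences and were not called, with overlapping groups. Their log2 fold changes were -0.13 ± 0.21 for Nrp1, 0.05 ± 0.13 for Nrp2 and -0.13 ± 0.16 for Sema3a.

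**Figure D1:**
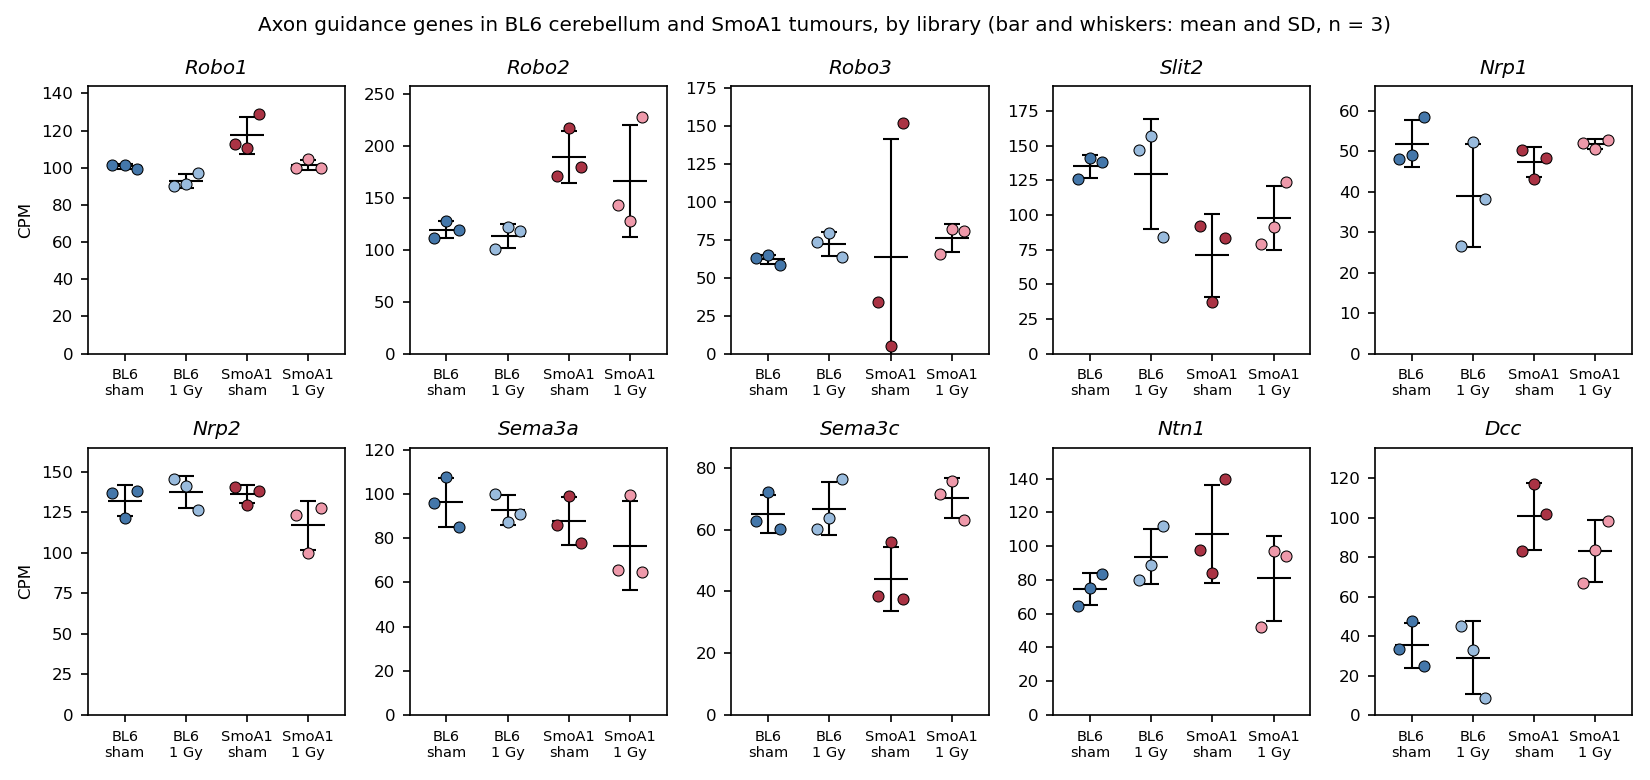
Level of each member in CPM (linear axes from 0) in the 12 BL6 and SmoA1 libraries. Points are libraries, and bars with whiskers are the mean and SD of 3; the lower whisker of Robo3 in SmoA1 sham is cut at 0. Dcc in SmoA1 lies above BL6 in every library, while Robo3 spreads from 5.09 to 151.7 CPM in SmoA1 sham.

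Cell type markers differed between the tissues in the same comparison. In SmoA1 sham 6 of 8 granule neuron progenitor markers and 7 of 8 cell division markers were higher than in BL6 sham, and all 8 mature granule neuron markers, 5 of 6 tested Purkinje markers and 6 of 8 interneuron markers were lower. The summed cell division markers ran from 135 to 227 CPM in BL6 sham and from 836 to 1015 CPM in SmoA1 sham. Summed Purkinje markers ran from 751 to 906 CPM and from 479 to 501 CPM, and summed mature granule markers from 671 to 812 CPM and from 397 to 476 CPM. Summed interneuron markers ran from 675 to 746 CPM in BL6 sham and from 356 to 389 CPM in SmoA1 sham. Glial and immune markers moved as well. Of 8 oligodendrocyte markers 4 were lower and 1 higher, and their sum ran from 538 to 596 CPM in BL6 sham and from 363 to 416 CPM in SmoA1 sham. Of 8 microglia and macrophage markers 3 were higher, with sums of 175 to 201 CPM and 267 to 286 CPM. In the other lists, 2 of 6 oligodendrocyte precursor markers were higher, 1 of 8 astrocyte markers was higher and 1 lower, and 1 of 4 tested choroid plexus markers was lower. No endothelial or meningeal fibroblast marker was called, and no marker of any of these lists was at 0 in any group. The part of these markers in the levels of Dcc, Robo2 and Slit2 was not tested. In bulk tissue, fewer cells of a type and less RNA per cell cannot be told apart.

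The comparison was repeated between irradiated SmoA1 tumours and irradiated cerebellum, in libraries other than the sham ones. Dcc was again higher in the tumours, and it was the only member called. In this comparison 6.92% of 16990 genes were called, 4.33% higher and 2.58% lower, so 1 of 10 members is close to that share. Dcc lay at 45.1, 32.9 and 8.82 CPM in BL6 1 Gy libraries 2, 3 and 4 and at 67.0, 83.4 and 98.4 CPM in SmoA1 1 Gy libraries 1, 2 and 3. The groups did not overlap, and BL6 1 Gy library 4, with 6 counts, was the lowest of all. The log2 fold change was 1.56 ± 0.30, a 2.95-fold difference, with an edgeR adjusted p of 0.000899, while the DESeq2 adjusted p was 0.173. Without BL6 1 Gy library 4 the log2 fold change was 1.06 with an edgeR adjusted p of 0.00725.

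Robo2 lay at 100.2, 122 and 118 CPM in BL6 1 Gy and at 143, 128 and 228 CPM in SmoA1 1 Gy. The groups did not overlap, and SmoA1 1 Gy library 3 stood highest. The log2 fold change of 0.54 ± 0.18 did not pass, with an edgeR adjusted p of 0.067. Without SmoA1 1 Gy library 1 or 2 Robo2 passed, with edgeR adjusted p of 0.0496 and 0.0149, and without library 3 its log2 fold change was 0.26 with an adjusted p of 0.48.

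Slit2 overlapped between the irradiated groups. It lay at 147, 157 and 83.8 CPM in BL6 1 Gy and at 78.9, 90.9 and 123 CPM in SmoA1 1 Gy, and the log2 fold change of -0.38 ± 0.20 was not called, with an edgeR adjusted p of 0.321. BL6 1 Gy library 4 was low for Slit2 as it was for Dcc, and without it Slit2 was called lower at -0.64 with an edgeR adjusted p of 0.0237. Robo3 was even across both irradiated groups, at 63.2 to 79.4 CPM in BL6 and 65.5 to 82.1 CPM in SmoA1. Its log2 fold change was 0.09 ± 0.19 and it was not called. The other 6 members had log2 fold changes from -0.26 for Sema3a to 0.42 for Nrp1, and none was called. Among markers, 7 of 8 of cell division and 2 of 8 of granule neuron progenitors were higher in the irradiated tumours, and 1 of 8 of mature granule neurons, 1 of 7 tested of Purkinje cells, 2 of 8 of interneurons and 1 of 8 of astrocytes were lower. Also higher were 1 of 6 oligodendrocyte precursor, 1 of 8 microglia and macrophage and 1 of 6 meningeal fibroblast markers. The 4 Y-linked genes had 251, 13 and 290 counts in BL6 1 Gy libraries 2, 3 and 4 and 309, 18 and 26 in SmoA1 1 Gy libraries 1, 2 and 3. Xist had 62, 85 and 58 counts in those BL6 libraries and 25, 184 and 130 in those SmoA1 libraries. The part of these markers and of sex in the member levels was not tested.

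**Figure D2:**
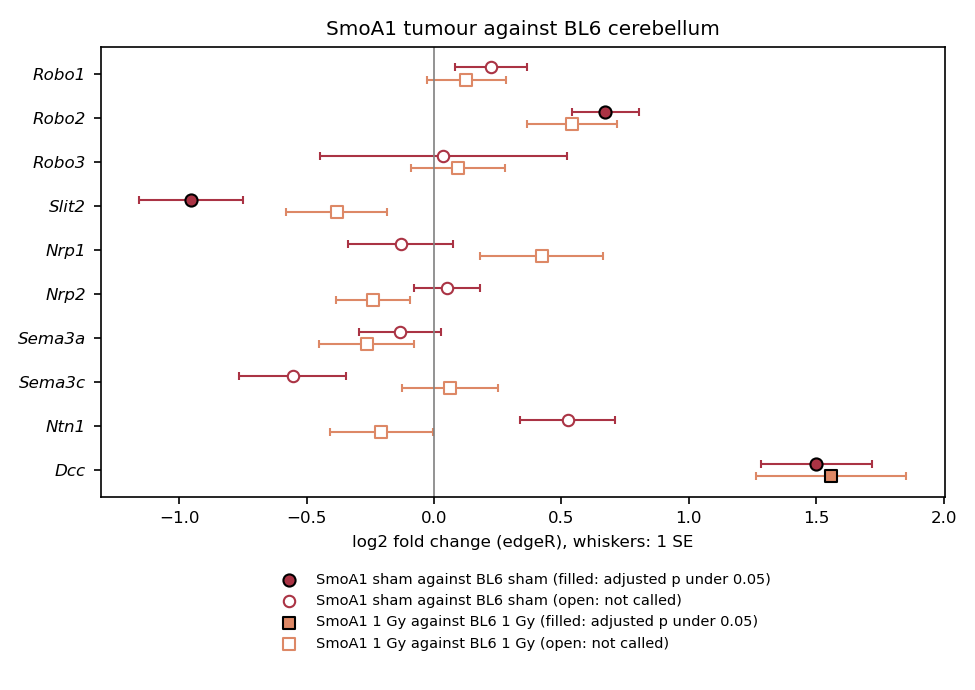
Log2 fold change of each member in SmoA1 tumour against BL6 cerebellum, in sham (circles) and 1 Gy (squares) libraries, with whiskers of 1 SE. Filled symbols passed an adjusted p of 0.05: Dcc in both comparisons (1.50 and 1.56), and Robo2 (0.67) and Slit2 (-0.95) in sham alone; differences between the comparisons are given by the test of the 1 Gy responses.

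The guidance pathway was followed beyond the members in 82 other genes, also chosen with earlier results of these data known. Of these, 80 were found in the files. In sham, 10 were higher and 11 lower in SmoA1 tumours among the 79 tested, against the 7.07% and 9.4% of all genes. The median log2 fold change over these genes was -0.02. The largest increase was in the netrin group. Draxin, a secreted repellent that binds DCC and netrin-1, rose 3.57-fold, from 34.7 ± 9.96 CPM in BL6 sham to 127 ± 25 CPM in SmoA1 sham, with an edgeR adjusted p of 1.1e-06. Neo1, which encodes the DCC relative neogenin, rose 1.83-fold, and Ntn4, a netrin of basement membranes, rose 1.65-fold. Unc5b, a repulsive netrin receptor, and Ntng1, a membrane-anchored netrin, fell to 0.653 and 0.645 of the cerebellum level. Thus 3 of 10 tested genes of that list were higher and 2 lower.

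In the SLIT and ROBO list none of 6 was higher and 2 were lower. Slit3, a further ROBO ligand, fell to 0.598 and Srgap3, a cytoplasmic partner of ROBO, to 0.765 of the cerebellum level. Of 18 semaphorins, Sema6a rose 1.72-fold and Sema4b 1.53-fold and none fell. Plexins are the signalling receptors for semaphorins. Plxnc1 rose 1.66-fold and Plxna2 1.33-fold, whereas Plxna4, a partner of neuropilins, fell to 0.558 of the level in cerebellum.

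Eph receptors are receptor tyrosine kinases for the membrane-bound ephrins. Of 14 tested, 4 were lower and none higher, and 3 of these 4 showed the largest decreases of the pathway. Epha6 fell from 55.7 ± 5.2 CPM to 5.46 ± 0.43 CPM, to 0.101 of the cerebellum level, with an edgeR adjusted p of 2.5e-07. Epha10 fell from 86.6 ± 2.8 to 20.2 ± 5.7 CPM, to 0.233, and Epha1 to 0.369 of the cerebellum level. None of 8 ephrins was called. Efna4 and Efna2 had log2 fold changes of 0.77 ± 0.36 and 0.49 ± 0.28, with edgeR adjusted p of 0.167 and 0.276. Neither Rgma nor Rgmb, which encode ligands of neogenin, was called, and Rgmb had a log2 fold change of 0.61 ± 0.26. Among 11 cytoplasmic effectors, Dpysl3 and Dpysl5, collapsin response mediators, rose 2.09-fold and 1.55-fold, and Dock1, a Rac activator, rose 1.39-fold. Ablim1, an actin-binding protein, fell to 0.464 and Pak1, a kinase downstream of Rac, to 0.629 of the cerebellum level.

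Several of these calls were lost in fits that left out 1 library, for some genes whichever of several libraries it was. In the 6 fits that each left out 1 library, Draxin, Neo1, Sema6a, Plxna4, Plxnc1, Epha1, Epha6, Epha10, Ntng1, Dpysl3, Dpysl5 and Ablim1 were called every time. Ntn4 and Unc5b were called in 4 of 6, Sema4b and Pak1 in 3, Plxna2 and Ephb1 in 2, and Slit3, Srgap3 and Dock1 in 1. The highest adjusted p of the latter genes ran from 0.0887 for Plxna2, without BL6 sham library 1, to 0.229 for Pak1, without BL6 sham library 2. DESeq2 called the former 12 and none of these 9, with DESeq2 adjusted p from 0.057 for Ntn4 to 0.163 for Srgap3.

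After 1 Gy, 4 of 79 pathway genes were higher and 3 lower in SmoA1 than in BL6, shares near the 4.33% and 2.58% of all genes tested. Dpysl3 was higher 2.06-fold, Draxin 1.82-fold, Dock1 1.67-fold and Ephb2, an ephrin-B receptor, 1.37-fold. Epha6 was lower at 0.382 of the cerebellum level, followed by Plxna4 at 0.71 and Ablim1 at 0.712. Draxin, Epha6 and Dpysl3 were called in all 6 fits that left out 1 library, Dock1 in 4, and Plxna4, Ephb2 and Ablim1 in 2. The highest adjusted p of these 4 ran from 0.0552 for Dock1, without BL6 1 Gy library 3, to 0.243 for Plxna4, without SmoA1 1 Gy library 3. DESeq2 did not call Plxna4, Ephb2 or Ablim1, with DESeq2 adjusted p of 0.157, 0.15 and 0.0988.

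**Figure D3:**
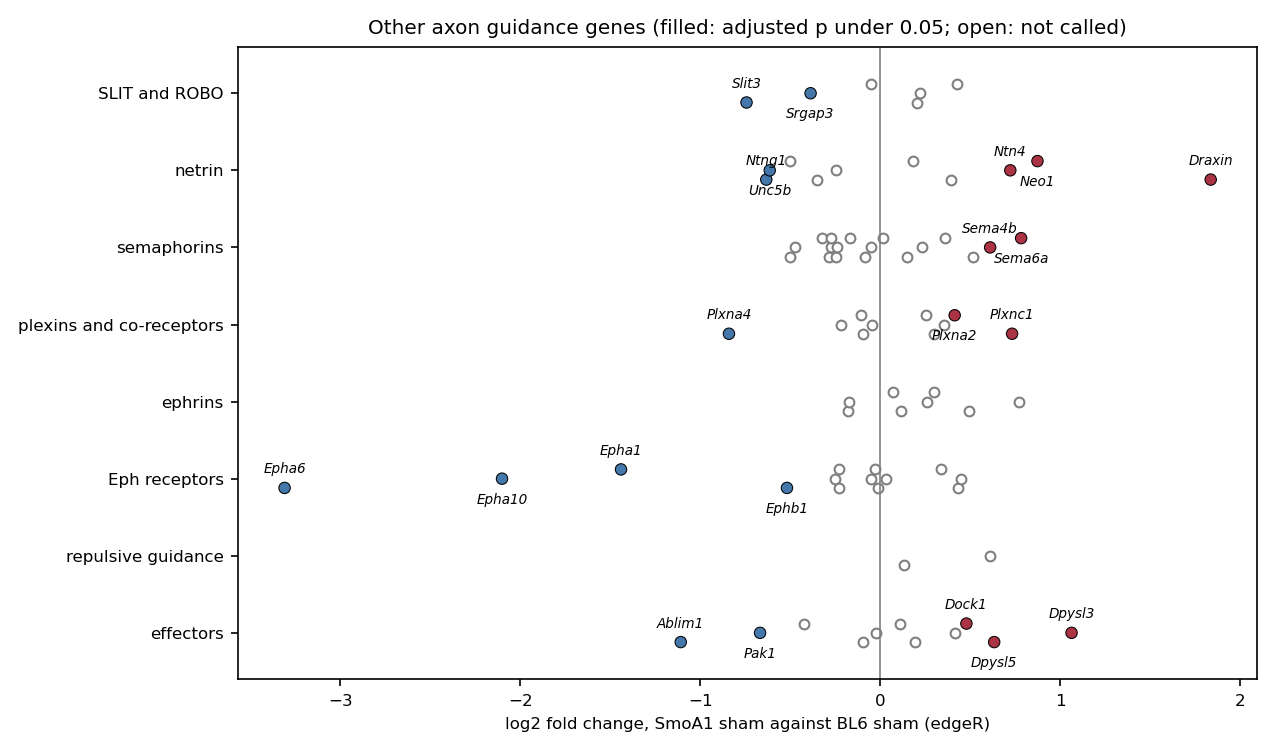
Log2 fold change in SmoA1 sham against BL6 sham of the 79 tested guidance genes outside the 10 members, 1 point per gene, grouped by list on the vertical axis. Filled, named points passed an adjusted p of 0.05; Draxin lies farthest to the right (1.84) and Epha6 farthest to the left (-3.31).

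Radiation was then compared with sham treatment within each model. In BL6 cerebellum no member was called, and 0.0126% of 15918 genes, or 2 genes, were called by edgeR and 1 by DESeq2, with 634 genes at an unadjusted p under 0.05. Every member had an edgeR adjusted p of 0.998. The largest member differences were -0.42 ± 0.24 for Nrp1, 0.34 ± 0.18 for Ntn1 and -0.34 ± 0.35 for Dcc on the log2 scale. Nrp1 lay at 48.1, 49.1 and 58.6 CPM in sham and at 26.7, 52.3 and 38.2 CPM after 1 Gy, with overlap. Robo1 lay at 90.2 to 97.1 CPM after 1 Gy, below the 99.4 to 102 CPM of sham, at a log2 fold change of -0.11 ± 0.16. None of the 78 tested pathway genes was called. Counts of 4 Y-linked genes were 3 to 7 in the sham libraries and 251, 13 and 290 in 1 Gy libraries 2, 3 and 4. High Y-linked counts were thus found only among irradiated libraries here. Xist counts were 111 to 161 in sham and 62, 85 and 58 in those 1 Gy libraries. The part of sex in these values was not tested.

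In SmoA1 tumours no member was called after 1 Gy either, where 2.17% of 16690 genes were called. Of those 363 genes 331 were higher and 32 lower. DESeq2 called 225 genes, and 2348 had an unadjusted p under 0.05. Sema3c came nearest among the members. It lay at 38.6, 56.0 and 37.6 CPM in sham and at 71.5, 75.8 and 63.2 CPM after 1 Gy, with no overlap, at a log2 fold change of 0.66 ± 0.20 and an edgeR adjusted p of 0.107. Without SmoA1 sham library 2 it passed, at 0.88 with an edgeR adjusted p of 0.0455.

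Slit2 lay at 91.9, 36.9 and 83.3 CPM in SmoA1 sham and at 78.9, 90.9 and 123 CPM after 1 Gy, with overlap, and its log2 fold change of 0.48 ± 0.24 had an edgeR adjusted p of 0.394. Robo3 lay within 65.5 to 82.1 CPM after 1 Gy, inside the wide range of its sham libraries. Its log2 fold change was 0.26 ± 0.50 with all libraries and 2.02 without SmoA1 sham library 4, where the edgeR adjusted p was 0.0058. Ntn1 had a log2 fold change of -0.39 ± 0.21, Dcc of -0.29 ± 0.17, Nrp2 of -0.23 ± 0.14, Robo1 of -0.21 ± 0.14 and Robo2 of -0.21 ± 0.17, none of them called. Nrp1 and Sema3a had log2 fold changes of 0.13 ± 0.20 and -0.19 ± 0.19. Robo1, Nrp1 and Nrp2 did not overlap between these groups either, which was not set against a share of all genes. The 4 Y-linked genes had 291 counts in SmoA1 sham library 2 and 309 in 1 Gy library 1, against 6 to 26 in the other 4 SmoA1 libraries. Xist had 89 counts in that sham library and 25 in that 1 Gy library, against 130 to 188 in the other 4.

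Of the 78 tested pathway genes, Epha10 alone was called after 1 Gy in SmoA1. It rose 2.89-fold, from 20.2 ± 5.7 to 57.9 ± 20.3 CPM, with an edgeR adjusted p of 0.0084. It was called in 4 of 6 fits that left out 1 library, with a highest adjusted p of 0.124 without SmoA1 1 Gy library 2. Markers moved in the same comparison. Summed Purkinje markers ran from 479 to 501 CPM in sham and from 499 to 801 CPM after 1 Gy, and summed mature granule markers from 397 to 476 CPM and from 423 to 733 CPM. Called higher were 1 of 8 mature granule, 1 of 6 tested Purkinje, 2 of 8 interneuron, 1 of 8 oligodendrocyte, 1 of 6 meningeal fibroblast and 1 of 4 tested choroid plexus markers, and 1 of 8 granule neuron progenitor markers was called lower. Their part in the Epha10 result was not tested.

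In Ptc tumours no member was called. EdgeR called 0% of the 19571 genes tested there and DESeq2 321, while 1421 had an edgeR p under 0.05 before adjustment. The spread between Ptc libraries differed among the members. The ratio of the highest to the lowest CPM within Ptc sham was 10.1 for Dcc, 9.43 for Sema3a and 9.29 for Slit2, whereas the median protein-coding gene had a ratio of 1.78. Sema3c, Robo1, Robo2 and Robo3 lay between 2.82 and 6.99, Nrp2 at 1.86, close to that median, and Ntn1 and Nrp1 below it, at 1.66 and 1.39. In BL6 sham the members' ratios ran from 1.02 for Robo1 to 1.92 for Dcc, against a median of 1.34.

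Robo3 showed the largest difference after 1 Gy in Ptc, in 1 library above all. It lay at 0.56, 1.27 and 1.58 CPM in sham libraries 1, 2 and 3 and at 3.97, 91.8 and 1.91 CPM in 1 Gy libraries 1, 2 and 3. All 3 irradiated libraries lay above all 3 sham libraries, and library 2 had 3011 counts against 184 and 70 in the others. The log2 fold change of 4.83 ± 1.58 had an edgeR adjusted p of 0.685. Without 1 Gy library 2 it was 1.37 with an adjusted p of 0.911.

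Nrp2, a neuropilin that binds class 3 semaphorins and vascular growth factors, also did not overlap between the groups. It lay at 11.9, 18.55 and 9.97 CPM in sham and at 20.1, 44.1 and 25.4 CPM after 1 Gy. Its log2 fold change was 1.15 ± 0.41 with an edgeR adjusted p of 0.685, and 0.76 without 1 Gy library 2. Nrp1 lay at 8.92, 7.64 and 10.6 CPM in sham and at 11.7, 43.2 and 9.81 CPM after 1 Gy, with overlap. Its log2 fold change of 1.25 ± 0.61 was 0.25 without 1 Gy library 2, so that library carries most of the difference.

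Sema3c, Slit2 and Sema3a lay at a few CPM in most Ptc libraries. Sema3c was at 1.66, 11.6 and 2.81 CPM in sham and at 1.94, 21.5 and 2.27 CPM after 1 Gy, highest in the library numbered 2 of each group. Slit2 was at 0.72, 2.61 and 6.72 CPM against 0.41, 3.201 and 0.93 CPM. Sema3a was at 2.99, 28.2 and 6.93 CPM against 17.2, 5.09 and 3.01 CPM. All 3 ligands overlapped between sham and 1 Gy, with log2 fold changes of 0.68 ± 1.16, -1.15 ± 1.02 and -0.59 ± 0.98.

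Dcc, Robo1, Robo2 and Ntn1 were the most abundant members per kb in Ptc sham, and each overlapped between sham and 1 Gy. Dcc lay at 152.5, 15.1 and 90.5 CPM in sham and at 73.2, 151 and 40.2 CPM after 1 Gy. Robo1 lay at 144, 36.2 and 63.5 CPM against 129, 181 and 81.9 CPM. Robo2 lay at 132.5, 42.1 and 86.9 CPM against 75.7, 109.5 and 110.3 CPM. In all 3 receptors sham library 2 was the lowest of the 6. Ntn1 lay at 155, 93.2 and 106 CPM against 57.5, 167 and 118 CPM. The log2 fold changes were 0.03 ± 0.82 for Dcc, 0.69 ± 0.55 for Robo1, 0.18 ± 0.42 for Robo2 and -0.05 ± 0.42 for Ntn1.

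**Figure D4:**
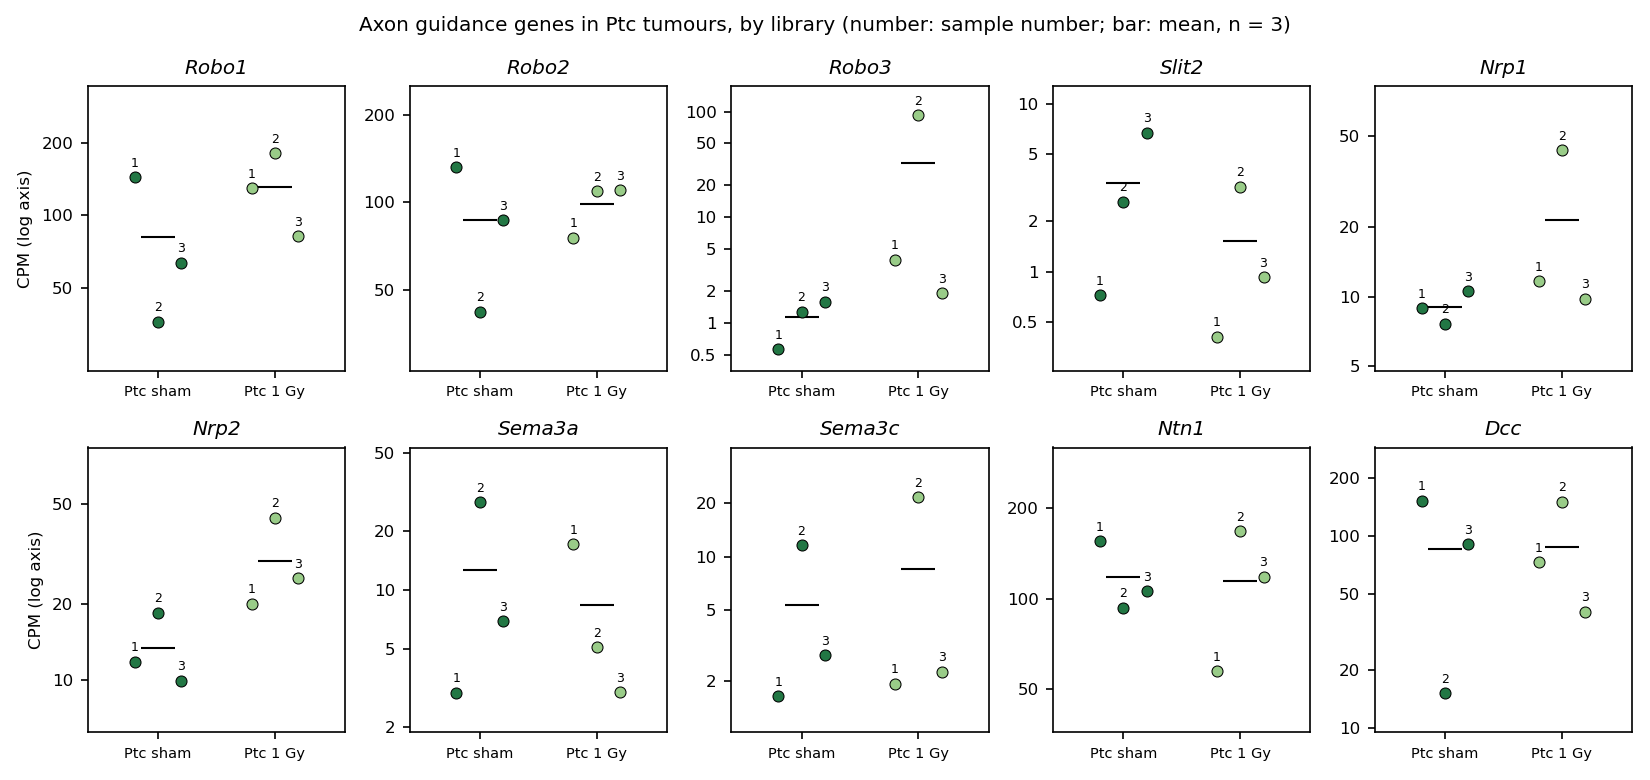
Level of each member in CPM (log axes, a different range in each panel) in the 3 sham and 3 irradiated Ptc libraries. Points carry the sample number and bars are means; sham library 2 is lowest for Robo1, Robo2 and Dcc, and 1 Gy library 2 is highest for Robo3, Nrp1, Nrp2 and Sema3c.

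The Ptc libraries that stood apart for the members also stood apart for cell type markers. Sham library 2 had summed Purkinje markers of 8204 CPM against 139 to 1813 CPM in the other 5, and summed interneuron markers of 1650 CPM against 19.5 to 425 CPM. Summed mature granule markers were 5423 CPM in it against 197 to 2626 CPM, and summed oligodendrocyte markers 3634 CPM against 154 to 826 CPM. Its summed cell division markers were 183 CPM against 1238 to 2184 CPM, values that go against its label of brain tumor. Summed granule neuron progenitor markers were 1978 CPM in it and 1472 CPM in 1 Gy library 2, against 3555 to 4807 CPM in the remaining libraries. The 1 Gy library 2 had the highest sums for endothelium, at 1149 CPM against 96.2 to 353 CPM, for microglia and macrophages, at 1952 CPM against 142 to 1103 CPM, and for meningeal fibroblasts, at 370 CPM against 66.1 to 146 CPM. Its sums were also highest for astrocytes, at 4254 CPM against 717 to 3311 CPM, and oligodendrocyte precursors, at 1172 CPM against 198 to 764 CPM. The part of these cells in the member levels was not tested. Without sham library 2 no member was called, and without both libraries numbered 2 Robo3 had a log2 fold change of 1.46, Nrp1 of 0.14 and Nrp2 of 1.06, none called. The 4 Y-linked genes summed to 12852 counts in 1 Gy library 1 and to 0 or 1 in the other 5.

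**Figure D5:**
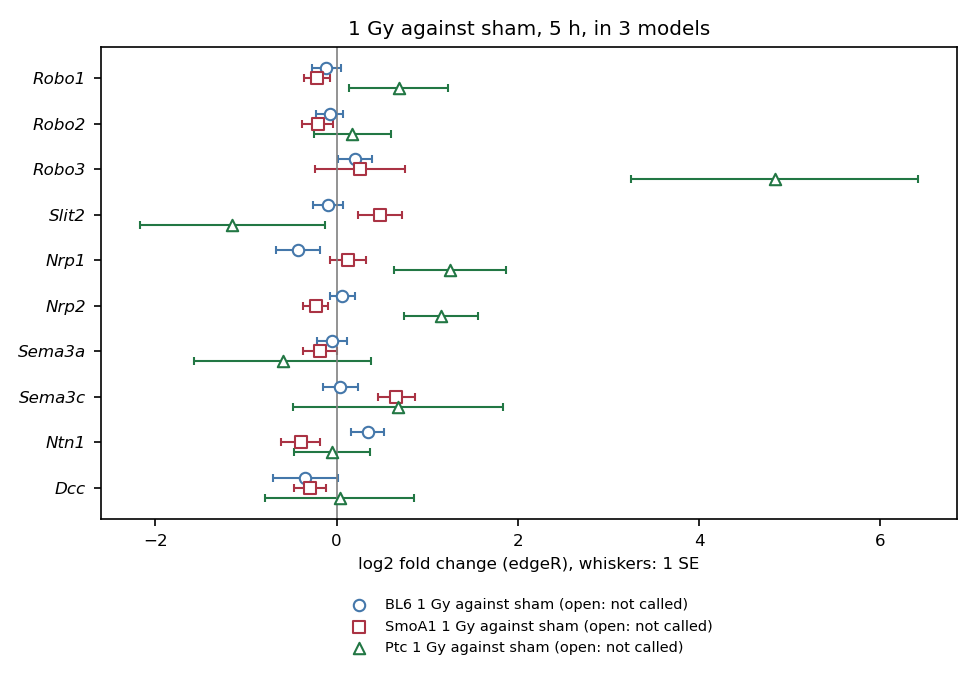
Log2 fold change of each member 5 h after 1 Gy against sham in BL6 (circles), SmoA1 (squares) and Ptc (triangles), with whiskers of 1 SE. All symbols are open, as no member passed an adjusted p of 0.05; Robo3 in Ptc lies farthest from 0, at 4.83 ± 1.58.

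Whether the models differed in their response to 1 Gy was tested with interaction terms, each over 12 libraries. For SmoA1 against BL6 no member was called, where 1.06% of 18188 genes were, 193 by edgeR and 101 by DESeq2, with 2044 at an unadjusted p under 0.05. Ntn1 had the smallest p of the members. Its 1 Gy response was 0.73 ± 0.30 lower in SmoA1 than in BL6 on the log2 scale, a value of -0.73, with an edgeR adjusted p of 0.321. The response of Sema3c was 0.62 ± 0.28 higher, with an adjusted p of 0.381. Slit2 and Nrp1 differed by 0.58 ± 0.32 and 0.56 ± 0.31, and Dcc by 0.07 ± 0.41. Robo3 differed by 0.06 ± 0.62 and, without SmoA1 sham library 4, by 1.83 with an edgeR adjusted p of 0.021.

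For Ptc against SmoA1 no member was called, where 0.00365% of 27377 genes were, 1 by edgeR and 112 by DESeq2, with 2255 at an unadjusted p under 0.05. Nrp2 came nearest, with a 1 Gy response 1.55 ± 0.43 higher in Ptc on the log2 scale and an edgeR adjusted p of 0.537. Robo3 differed by 4.79 ± 1.80 with an adjusted p of 0.552. The sham and 1 Gy libraries of SmoA1 enter both interaction tests, so these share samples.

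The genes whose levels were most like a member's over the 12 BL6 and SmoA1 libraries were found by the root mean square difference of log2 CPM, each centred on its own mean, among 15152 genes. For Robo2 these were Cradd at 0.12 and Ryk at 0.15, where Robo2 itself varied by 0.37 around its mean. For Dcc they were Atp8b3 at 0.36 and Cfap61 at 0.40, with Dcc varying by 1.00. For Slit2 they were Hydin at 0.22 and Slc13a4 at 0.25, with Slit2 varying by 0.55. For Robo3 they were Alpk3 at 0.48 and Mb at 0.49, with Robo3 varying by 1.08. For Sema3c they were Pde4b at 0.11 and Aldh2 at 0.13, with Sema3c varying by 0.32. Nek3 and Lsm12, both at 0.17, were nearest to Ntn1, which varied by 0.34.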

How the data were processed

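The deposited files hold raw counts of reads per gene, laid out as STAR writes them, in 54 files for 18 libraries. Per the labels' protocols, RNA was extracted with an RNeasy kit and ribosomal RNA was depleted. The submitters' processing notes name mm10 and Cell Ranger 5.0.1; the aligner was not given in the sources used here. Each BL6 and SmoA1 sample has 4 files, which differed by less than sampling noise (variance to mean ratio 0.857 to 0.938 over genes with at least 40 counts), so they were summed. The titles number the 4 files of a sample as biological replicates 1 to 4, so summing them overrides that label. Titles of the Ptc samples number them as biological replicates 1 to 3 within each group. Beyond these titles, no label ties the samples to separate animals, so p-values reflect only how these samples spread. Symbols and positions came from GENCODE M21 (GRCm38), which matched 53274 of 53379 identifiers; Ntn3 and Hjv had no match by symbol.

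The unstranded column was used. In BL6 and SmoA1 the strand columns followed the genome strand, not the gene's: plus-strand genes had 99.1% to 99.4% of their counts in the first strand column and minus-strand genes 0.44% to 0.63%. Sense and antisense reads cannot be told apart there. In Ptc 94.4% to 95% of counts were on 1 strand, and members had 98.5% to 99.7% of theirs in the sense column.

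Unmapped reads were 45.8% to 76.1% of all in BL6 and SmoA1 and 2.53% to 6.16% in Ptc, and rows naming no gene stayed out of library sizes. Genes were filtered with filterByExpr, scaled with TMM and tested with the quasi-likelihood test of edgeR 4.0.16 in R 4.3.3, pair by pair, with Benjamini-Hochberg adjustment over all genes tested. CPM use 1 TMM scale for the 12 BL6 and SmoA1 libraries and 1 for the 6 Ptc libraries. All members passed the filter in every comparison. The test was also run on simulated counts with planted differences. The smallest planted fold was larger than that of Robo2 in sham, so the simulation does not bear on differences of that size.

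Members and gene lists were chosen with earlier results of these data known. From each of 8 pathway lists the text names at most 3 called genes in each direction, ranked by p, or else at most 2 that were not called; Ephb1 falls outside this rule and was chosen after its values were seen. Alternatives were DESeq2 1.42.0, RLE factors, the sense column in Ptc, no filter or a mean of 1 CPM or more, a block for the sample number, 1 fit for all libraries, leaving out each library, both Ptc libraries numbered 2 left out, and loess offsets (span 0.3, limma 3.58.1) in Ptc. Figures were drawn with matplotlib 3.10.9.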

Additional observations from a re-analysis of the deposited data

Results flagged for a closer look

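For 2 Eph receptor genes the 1 Gy response differed between SmoA1 tumours and BL6 cerebellum by the test of the difference itself. The response of Epha6 was 1.92 higher in SmoA1 on the log2 scale, with an edgeR adjusted p of 0.041 and a DESeq2 adjusted p of 0.138. Epha6 lay at 5.46 ± 0.43 CPM in SmoA1 sham and 19.2 ± 7.5 CPM in SmoA1 1 Gy, against 55.7 ± 5.2 and 50.9 ± 9.6 CPM in BL6 (SD, n = 3). The response of Epha10 was 1.49 higher in SmoA1, with an edgeR adjusted p of 0.0309 and a DESeq2 adjusted p of 0.0478. Epha10 lay at 20.2 ± 5.7 and 57.9 ± 20.3 CPM in SmoA1 sham and 1 Gy, against 86.6 ± 2.8 and 90.5 ± 20.7 CPM in BL6. Of the 12 fits that each left out 1 library, Epha6 was called in 2 and Epha10 in 3, so either call was lost in most of these fits. The highest adjusted p was 0.159 for Epha6, without SmoA1 1 Gy library 1, and 0.166 for Epha10, without SmoA1 1 Gy library 2.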

How the results depend on the processing

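Of 990 member values under the alternatives, 967 stayed called or not called as before (56 of them changed sign with neither value called), 19 passed the threshold anew, 2 lost it and 2 reversed. Most of the 967 had no call to lose, as 3 members in sham and 1 in the irradiated comparison made up the calls among 70 main values. Both lost calls were under DESeq2, Slit2 in sham and Dcc in the irradiated comparison. Both reversals were Robo3 in SmoA1 sham against BL6 sham, whose log2 fold change ran from -1.72 to 0.63 with 1 library left out. It was -1.79 with the block below. That block compares only sample numbers held by both groups, so SmoA1 sham library 4 drops out of its contrasts. The value of -1.72 was also without that library. Why that library stood apart was not tested. Members called with 1 library left out ran from 3 to 5 in SmoA1 sham against BL6 sham, 1 to 2 in the irradiated comparison, 0 to 1 for 1 Gy in SmoA1 and 0 to 1 for its difference from BL6. Genes called ran from 0 to 6 for 1 Gy in BL6, 109 (without SmoA1 1 Gy library 2) to 445 for 1 Gy in SmoA1, 83 to 291 for its difference from BL6, and 0 to 91 for Ptc minus SmoA1. DESeq2 called 1727 genes in sham and 702 genes and 0 members in the irradiated comparison, 1, 225 and 321 genes for 1 Gy in BL6, SmoA1 and Ptc, and 101 and 112 for the differences. With no filter, genes called were 4422 (with 4 members, Ntn1 added) and 2235 (with 2 members), 16, 969 and 1, and 449 and 7, in that order. A mean of at least 1 CPM gave 4162 (with 4 members, Ntn1 added) and 1958 (with 2 members) genes, and 8 and 614 for 1 Gy in BL6 and SmoA1. With 12 libraries in 1 fit, 2 members were called in the irradiated comparison, where Robo2 had an edgeR adjusted p of 0.0486, 1 gene for 1 Gy in BL6, and 766 genes with 1 member, Sema3c (edgeR adjusted p 0.0483), for 1 Gy in SmoA1. With all 18, 1 Gy in Ptc gave 1152 genes and 2 members, Robo3 (edgeR adjusted p 0.029) and Nrp2 (0.0159), and the Ptc minus SmoA1 difference 3 genes. That difference gave 0 genes with RLE factors and 8 without both Ptc libraries numbered 2. Same-numbered deviations correlated at -0.041 to 0.094, apart from 0.190 for Ptc number 3. Differently numbered ones correlated at -0.207 to 0.150, both extremes in Ptc. With so few matched numbers these values neither show nor exclude pairing by sample number. With the number as a replicate block, members called were 4 and 2 for SmoA1 against BL6 in sham and 1 Gy, 0 for 1 Gy in BL6 (7 genes), 2 in SmoA1 (551 genes; Robo3 at 2.00 and Robo2 at -0.53) and 0 in Ptc; genes called were 1960 and 1256 in sham and 1 Gy. The strand-column alternative was not run in BL6 and SmoA1, where it would keep genes of 1 genome strand. Member counts of 4 to 171 limit precision in those libraries.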
